A study of Macaca mulatta with 27 samples.

Results

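LCDM (EPS) cells are rhesus PSCs reprogrammed with the cocktail for extended pluripotent stem (EPS) cells, and they were compared here with the primed cells they came from. The members were taken from the labels alone, as all 3 LCDM (EPS) libraries and all 6 primed libraries, which is 9 of the 27 libraries in the series, and every gene was used. Both groups were LyonES-tGFP-(S3) cells, a clonal line of rhesus embryonic stem cells that carries tauGFP under the ubiquitous CAG promoter and the hormone-dependent transcription factor STAT3-ERT2. Primed cells were passaged mechanically as clumps. LCDM (EPS) cells received LIF, the GSK3 inhibitor CHIR99021, (S)-(+)-dimethindene maleate, and minocycline hydrochloride, were dissociated to single cells, and were not given tamoxifen, so that STAT3-ERT2 was not activated in either group. Since all libraries came from 1 clone, differences between lines are not covered. The labels do not say whether libraries of a group came from separate cultures, and the p-values then measure only the spread between these samples, which may be technical.

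Primed PSCs resemble the epiblast around gastrulation and depend on FGF2 with MEK-ERK signaling and on Activin and Nodal, whereas naive PSCs resemble the epiblast before implantation. EPS medium was designed to hold PSCs in a state that can give embryonic and extraembryonic tissue. Inhibition of GSK3 stabilizes β-catenin, the coactivator of the Wnt pathway, dimethindene blocks histamine H1 and muscarinic receptors, and minocycline is a tetracycline, a class that blocks bacterial ribosomes and can slow mitochondrial ones. The neural tube arises from the epiblast when Nodal and BMP signals are low. Wnt and BMP ligands of the roof plate pattern its dorsal side and Sonic hedgehog its ventral side, and Notch signaling between neighbouring cells holds back progenitors while proneural factors drive others to become neurons.

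Reads were counted per gene symbol, and values are given as CPM, the count of a gene relative to the total of its library, after TMM normalization. LCDM (EPS) libraries held between 16799803 and 20046414 counts (median 17494703), more than any primed library, of which the totals ran from 7111886 to 15183387 (median 10606171.5). A level of 3 counts equals 0.141 to 0.171 CPM in LCDM (EPS) libraries and 0.207 to 0.429 CPM in primed libraries. A group in which no library exceeded 3 counts for a gene was taken as at the floor, and the fold against it is given as a bound, which covers counting error only. Replicates differed by more than sampling noise. Taken over genes, which do not count as independent replicates, the correlation of log2 CPM between libraries was between 0.975 and 0.979 within LCDM (EPS) and between 0.918 and 0.961 within primed cells. The primed library J3, the shallowest, lay farther from the other libraries of its group than any other library did (1.2 in root mean square log2 CPM, against 0.716 to 0.874 for the other primed and 0.54 to 0.583 for LCDM (EPS) libraries). Between the primed columns lettered K and J, 469 of 12559 genes differed.

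The comparison of LCDM (EPS) with primed cells covers the cocktail together with single-cell passaging and any other difference in culture. These cannot be told apart here. Of the 13625 genes tested by edgeR's quasi-likelihood test, 7782 (57.1%) had a Benjamini-Hochberg adjusted p under 0.05. Expression was higher in LCDM (EPS) cells for 3845 genes (28.2%) and lower for 3937 (28.9%). A change of at least 1 on the log2 scale, together with the adjusted p, was found for 2337 higher and 2017 lower genes. All 3 LCDM (EPS) libraries lay above all 6 primed libraries for 3987 genes and below them for 3559. The median log2 fold change was 0.03. These shares are the background against which each group of genes has to be read. When the LCDM (EPS) libraries were thinned to the median primed total, 7697 genes changed, 3769 upward and 3928 downward. Fold changes below are log2 of LCDM (EPS) over primed, and each p is edgeR's, adjusted over all genes tested. The ± is an approximate standard error, the absolute fold change divided by the square root of the test's F statistic. It can understate the uncertainty where a group is near 0 counts. For VTCN1, given as -9.99 ± 0.40, leaving out single libraries gave -13.5 to -9.34. Values are those of the 3 LCDM (EPS) libraries in order, and the lowest, highest, and median of the 6 primed libraries.

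The factors that define pluripotent cells were nearly all lower in LCDM (EPS) cells. Of 28 core and primed pluripotency genes tested, 25 fell, 1 rose, and 2 were not called, with a median log2 fold change of -3.35. POU5F1, which encodes OCT4, the central factor of the network, stood at 5.98, 2.36, and 1.14 CPM in LCDM (EPS) libraries and at 1104 to 1296 CPM with a median of 1177 in primed libraries (log2 fold change -8.57 ± 0.34, adjusted p = 9.8e-11). NANOG, its partner, was counted at 0.0569, 0.0471, and 0 CPM against 107 to 157 CPM with a median of 135, at least 784-fold lower (adjusted p = 2.6e-12). NANOG was under the floor and POU5F1 under 6 CPM in every LCDM (EPS) library, while both were above 100 CPM in every primed library. Both have pseudogenes with which reads can be shared, and how shared reads were counted is not given, so their levels are uncertain to that extent. In bulk samples, fewer cells of a type and less RNA per cell cannot be told apart.

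PRDM14, a repressor that guards pluripotency, was found at 2.33, 0.471, and 0.0541 CPM in LCDM (EPS) and 203 to 354 CPM with a median of 279.6 in primed libraries (log2 fold change -8.22 ± 0.48, adjusted p = 4.7e-09). For TDGF1, the Nodal coreceptor, the values were 0.797, 2.12, and 0.0541 CPM against 180.4 to 219.8 CPM with a median of 199.5 (log2 fold change -7.58 ± 0.41, adjusted p = 1.8e-09), and for DPPA4, a chromatin protein of early embryos, 1.76, 1.37, and 0.541 CPM against 432 to 492 CPM with a median of 455 (log2 fold change -8.53 ± 0.21, adjusted p = 1.1e-12). PRDM14 and POU5F1 varied among LCDM (EPS) libraries, but the highest of these was still far under the lowest primed library. LIN28A, which blocks maturation of let-7 microRNAs, fell to 7.63, 7.92, and 5.74 CPM from 479.5 to 665 CPM with a median of 585 (log2 fold change -6.33 ± 0.17, adjusted p = 1.9e-12), and SALL4, a zinc-finger partner of OCT4, to 25.2, 28, and 16.2 CPM from 301 to 420.2 CPM with a median of 345 (log2 fold change -3.91 ± 0.18, adjusted p = 4.9e-10). L1TD1, an RNA-binding protein of PSCs, fell by more, to 9.85, 5.33, and 1.84 CPM from 1128 to 1378 CPM with a median of 1245 (log2 fold change -7.80 ± 0.36, adjusted p = 3.9e-10). The groups did not overlap for any of these genes. DPPA2 was at 0 in the 3 LCDM (EPS) libraries and at 5.91 to 15 CPM with a median of 13.5 in primed libraries, at least 71.3-fold lower (adjusted p = 3.9e-07). UTF1, a chromatin factor of PSCs, was low in primed cells as well (0.223 to 5.29 CPM with a median of 2.11) and at 0 in LCDM (EPS), at least 13.9-fold lower (adjusted p = 0.0014).

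Further members of the list fell. ZFP42 fell to 3.76, 4.01, and 1.73 CPM from 48.4 to 75.1 CPM with a median of 60.1 (log2 fold change -4.25 ± 0.29, adjusted p = 2e-08), and PODXL, which carries the TRA-1-60 epitope, to 221, 220, and 207 CPM from 1518 to 2229 CPM with a median of 1899 (log2 fold change -3.13 ± 0.11, adjusted p = 2e-11). FGF2, the growth factor on which primed cells depend, stood at 36.1, 30.3, and 24.4 CPM against 104 to 276 CPM with a median of 202 (log2 fold change -2.71 ± 0.27, adjusted p = 1.2e-06), and LIN28B at 96.2, 88.2, and 109 CPM against 278 to 450.3 CPM with a median of 383 (log2 fold change -1.95 ± 0.16, adjusted p = 1.5e-07). All of these were clear of the primed range but remained above the floor. TERF1, OTX2, THY1, GDF3, SFRP2, ZIC2, and CD24 also fell, by between 0.63 and 3.41 on the log2 scale. SOX2, which pluripotent and neural stem cells share, was not called in either direction, with 325, 323, and 338 CPM against 214 to 337 CPM with a median of 266 (log2 fold change 0.28 ± 0.14, adjusted p = 0.095). The highest primed library reached the LCDM (EPS) range for SOX2. SOX2 was called higher with DESeq2 (log2 fold change 0.31, adjusted p = 0.045), when the 8 groups were fitted together (0.28, adjusted p = 0.024), without the primed library K3 (0.37, adjusted p = 0.026), and against the primed columns lettered J alone (0.58, adjusted p = 4.5e-05).

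**Figure D1:**
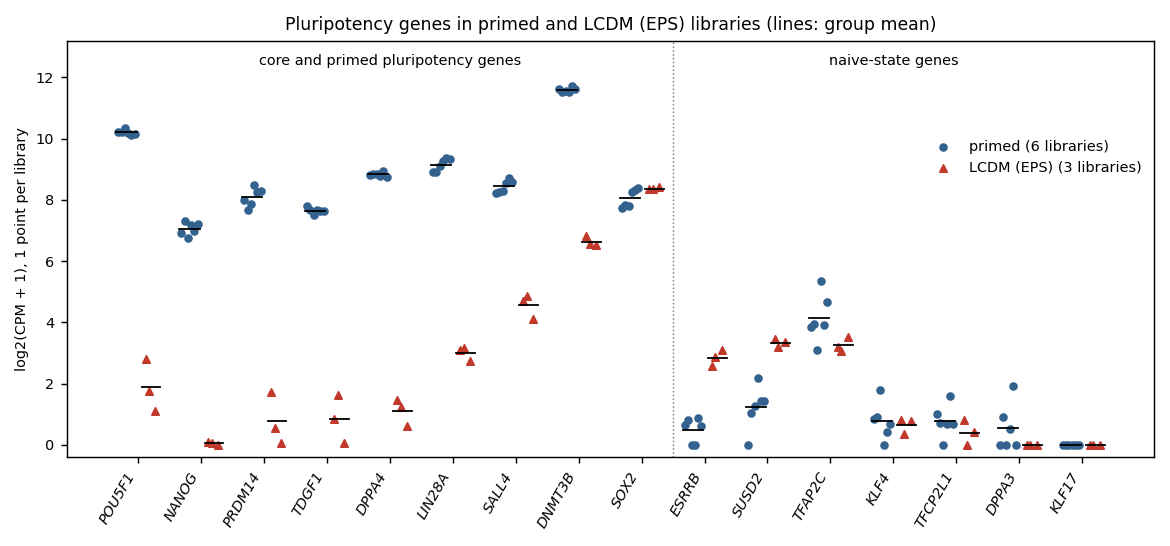
Expression of pluripotency genes as log2(CPM + 1), with 1 point per library, circles for the 6 primed and triangles for the 3 LCDM (EPS) libraries, and a line at each group mean. POU5F1, NANOG, PRDM14, TDGF1, and DPPA4 lie near 0 in LCDM (EPS) libraries, where POU5F1 does not exceed 5.98 CPM, while SOX2 overlaps between the groups.

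The labels describe LCDM (EPS) cells as naive. Of the markers set for that label, KLF17, DPPA3, and DPPA5 were at 0 in all 3 LCDM (EPS) libraries, and KLF4 (0.740, 0.283, and 0.704 CPM) and TFCP2L1 (0.740, 0, and 0.325 CPM) stayed under 1 CPM, as they did at the primed median. These 5 genes did not pass the filter on low counts. TFAP2C, a factor of naive PSCs and trophoblast, was lower in LCDM (EPS), with 8.08, 7.45, and 10.4 CPM against 7.57 to 39.97 CPM with a median of 14.3 (log2 fold change -1.14 ± 0.43, adjusted p = 0.037), but the ranges overlapped and the call was lost without LCDM (EPS) library 1, 2, or 3 or primed library K1 or K3 (adjusted p = 0.065 to 0.12) and against the J columns alone (-0.43, adjusted p = 0.32). SUSD2, a surface marker of naive human PSCs, rose to 10.02, 8.11, and 9.31 CPM from 0 to 3.51 CPM with a median of 1.56 (log2 fold change 2.52 ± 0.72, adjusted p = 0.0083), as did ESRRB, a target of GSK3 inhibition in mouse naive cells, at 5.01, 6.32, and 7.47 CPM against 0 to 0.830 CPM with a median of 0.545 (log2 fold change 3.76 ± 0.91, adjusted p = 0.0028). For both, every LCDM (EPS) library lay above every primed library. NR5A2, an orphan receptor that binds the POU5F1 promoter, fell to 0.740, 0, and 0 CPM from 31.8 to 46.2 CPM with a median of 37 (log2 fold change -7.30 ± 0.64, adjusted p = 2.8e-07). TFE3 fell as well (log2 fold change -1.01 ± 0.14, adjusted p = 3e-05). In all, 8 of the 18 naive-state genes in the tables could be tested, of which 3 rose and 4 fell (2 without LCDM (EPS) library 3 or primed library K1), a split whose larger side was turned under 2 of the 15 alternative settings. Of the 7 naive markers set, 5 were thus under 1 CPM in LCDM (EPS) libraries and at the primed median, TFAP2C was lower, and SUSD2 was higher. Of the 8 markers set for pluripotent cells, 7 were lower (POU5F1, NANOG, PRDM14, TDGF1, DPPA4, LIN28A, and SALL4) and SOX2 was not called. On those 7 the data go against the label of pluripotent cells, and the cells are called here by their protocol only.

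Genes of neural progenitors were higher in LCDM (EPS) cells. Of 20 pan-neural progenitor genes, 18 rose, 1 fell, and SOX2 was not called, with a median log2 fold change of 3.53. SOX1, the earliest marker of the neural plate, stood at 195, 189.9, and 194 CPM in LCDM (EPS) and at 0 to 0.143 CPM with a median of 0 in primed libraries, at least 450-fold higher (adjusted p = 4.1e-13). POU3F2, a POU factor of neural cells, was found at 317, 312, and 366 CPM against 0 to 1.08 CPM with a median of 0.186 (log2 fold change 10.05 ± 0.32, adjusted p = 1.1e-11) and its relative POU3F3 at 252, 228, and 255 CPM against 0 to 0.532 CPM with a median of 0 (log2 fold change 10.99 ± 0.33, adjusted p = 6.7e-12). These 3 genes were close to absent in every primed library and differed little between the LCDM (EPS) libraries. PAX6, a master factor of neural progenitors, reached 68.1, 54.5, and 76.8 CPM from 1.86 to 7.79 CPM with a median of 2.71 (log2 fold change 4.25 ± 0.35, adjusted p = 1.4e-07), and HES5, the Notch effector of neural stem cells, 16.3, 21.7, and 19.9 CPM from 0 CPM in all 6, at least 45.1-fold higher (adjusted p = 1.1e-06). SOX21, which opposes SOX2 in progenitors, was measured at 82.4, 85.9, and 79.2 CPM against 0.335 to 5.46 CPM with a median of 2.62 (log2 fold change 4.83 ± 0.44, adjusted p = 5e-07). In none of these did the groups overlap.

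Some genes of this list were already well expressed in primed cells. NES, the intermediate filament nestin, rose only to 3057, 3143, and 3059 CPM from 2218 to 2562 CPM with a median of 2475 (log2 fold change 0.35 ± 0.049, adjusted p = 3.6e-05), and CDH2, N-cadherin, to 795, 754, and 778 CPM from 199.6 to 358 CPM with a median of 264 (log2 fold change 1.54 ± 0.15, adjusted p = 1.3e-06). MSI1, an RNA-binding protein of stem cells, rose to 344, 379, and 352 CPM from 36 to 62.6 CPM with a median of 53.2 (log2 fold change 2.78 ± 0.14, adjusted p = 6.3e-10). The increases in NES and CDH2 were small beside those of SOX1 or PAX6, yet the groups were fully apart. PROM1, which encodes CD133, was the only member to fall, to 119, 111, and 118 CPM from 198 to 252 CPM with a median of 210.5 (log2 fold change -0.90 ± 0.093, adjusted p = 1.7e-06).

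Among the genes that mark position in the neural tube, those of the dorsal side stood out. Of 18 dorsal and roof plate genes tested, 15 rose, 2 fell, and GDF7 was not called (adjusted p = 0.041 with the 8 groups fitted together), and the median log2 fold change was 6.001, or 4.75 with the 6 genes at the floor in primed cells set to their bounds. ZIC1, a factor of the dorsal tube, stood at 339.5, 362, and 391 CPM in LCDM (EPS) and 0 to 2.05 CPM with a median of 0.708 in primed libraries (log2 fold change 8.80 ± 0.32, adjusted p = 3.1e-11), and PAX3, which marks dorsal progenitors and neural crest, at 186, 202, and 212 CPM against 0 to 4.43 CPM with a median of 1.57 (log2 fold change 6.94 ± 0.43, adjusted p = 8.5e-09). PAX7, the relative of PAX3, was at 59.4, 75.2, and 69.8 CPM and at 0 CPM in all 6 primed libraries, at least 159-fold higher (adjusted p = 9.6e-09). The 3 LCDM (EPS) libraries lay close together for all of them. LMX1A, the factor that specifies the roof plate, rose to 28.3, 31.1, and 32.6 CPM from 0 to 1.33 CPM with a median of 0 (log2 fold change 6.87 ± 0.79, adjusted p = 4.7e-06), and WNT3A, a roof plate ligand, to 21.4, 22.4, and 21.3 CPM from 0 to 0.143 CPM with a median of 0, at least 50.6-fold (adjusted p = 9.4e-09). Dorsal interneuron progenitor genes rose too, OLIG3 to 8.08, 8.63, and 9.91 CPM and GSX1 to 19.8, 21.03, and 21.6 CPM, at least 20.7-fold and 48.5-fold. For BMP4, a ligand of the early roof plate and of mesoderm, the direction was opposite, with 0.114, 0.141, and 0.866 CPM against 13.5 to 34.2 CPM with a median of 16.9 (log2 fold change -5.72 ± 0.61, adjusted p = 2.4e-06). ZIC5 fell as well (log2 fold change -0.67 ± 0.14, adjusted p = 0.001).

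Ventral genes rose as well, but their summed level stayed under that of the dorsal list, which was 1282 to 1406 CPM in LCDM (EPS) libraries. Of the 16 listed, 9 were tested, and 6 rose (66.7%, against 28.2% over all genes tested). None fell (0 also at an unadjusted p under 0.05 and by DESeq2). SHH, NKX2-2, and other ventral genes did not pass the filter. NKX6-1, a ventral progenitor factor, stood at 2.16, 3.68, and 1.62 CPM against 0 CPM in all 6 primed libraries, at least 5.81-fold higher (adjusted p = 0.0012), and OLIG2, a motor neuron progenitor factor, at 10.9, 9.34, and 12.1 CPM against 0 to 1.12 CPM with a median of 0 (log2 fold change 5.90 ± 1.10, adjusted p = 4e-04). PTCH1, the hedgehog receptor and a target of the pathway, rose to 108, 103, and 103 CPM from 31.3 to 57.4 CPM with a median of 44.3 (log2 fold change 1.25 ± 0.16, adjusted p = 1.1e-05), whereas GLI1, a further target, was not called (6.602, 7.97, and 5.47 CPM against 7.71 to 15 CPM with a median of 9.49, log2 fold change -0.60 ± 0.32, adjusted p = 0.13) but was lower against the K columns alone (-0.80, adjusted p = 0.045). FOXA2, a floor plate and endoderm factor, was not called either (log2 fold change -1.94 ± 1.28, adjusted p = 0.22). The summed level of the ventral list lay between 159 and 173 CPM in LCDM (EPS) and between 53 and 82 CPM in primed libraries.

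Genes that mark position along the head-to-tail axis moved in both directions. Of 13 midbrain and isthmus genes, 6 rose and 1 fell (2 without primed library J1). LMX1B reached 83.2, 88.5, and 91.9 CPM from 0 to 3.57 CPM with a median of 0.441 (log2 fold change 6.86 ± 0.61, adjusted p = 3.6e-07), and PAX2, which marks the midbrain-hindbrain boundary and the kidney, 15.1, 15.4, and 13.8 CPM from 0 CPM in all 6, at least 34.5-fold higher (adjusted p = 3.2e-06). FGF8, the ligand of that boundary and of the primitive streak, went the other way, to 0.171, 0.424, and 0 CPM from 9.59 to 28.3 CPM with a median of 15.5 (log2 fold change -6.37 ± 0.69, adjusted p = 2.8e-06). HOXA2, the HOX gene with the most anterior border, stood at 36.5, 49.9, and 38.5 CPM against 0 to 0.622 CPM with a median of 0 (log2 fold change 7.999 ± 0.60, adjusted p = 6.1e-08), and HOXB2 at 76.7, 80.4, and 71.1 CPM against 2.16 to 3.81 CPM with a median of 2.42 (log2 fold change 4.85 ± 0.19, adjusted p = 7.8e-11). HOXB3 rose to 18.7, 19.99, and 15.97 CPM from 0 to 3.80 CPM with a median of 0.429 (log2 fold change 4.25 ± 0.90, adjusted p = 0.0011). More posterior, HOXB8, a spinal cord gene, fell to 0, 0, and 0.271 CPM from 0.893 to 5.57 CPM with a median of 1.75 (log2 fold change -4.58 ± 1.40, adjusted p = 0.012), a call that was lost without LCDM (EPS) library 1 or 2 (adjusted p = 0.053 and 0.052). Among the 17 hindbrain and spinal cord genes tested, 6 rose and 4 fell (2 without LCDM (EPS) library 1 or 2). The shares, 35.3% and 23.5%, lay near those over all genes tested (28.2% and 28.9%). EGR2, which is both a hindbrain factor and an immediate early gene of ERK signaling, was 1 of those that fell. In the forebrain list, LHX5 rose to 35.9, 27.2, and 44.2 CPM from 0 to 1.06 CPM with a median of 0 (log2 fold change 6.83 ± 0.72, adjusted p = 2.1e-06). LHX2 was above every primed library but was not called (log2 fold change 2.69 ± 1.15, adjusted p = 0.06). It was called higher without the primed library K1 (adjusted p = 0.025), against the J columns alone (adjusted p = 0.029), with DESeq2 (adjusted p = 0.044), and with the 8 groups fitted together (adjusted p = 0.0037). In this list, 2 of the 8 forebrain genes tested rose (4 without primed library K1) and 2 fell. Each share was 25%, near the 28.2% higher and 28.9% lower over all genes tested.

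**Figure D2:**
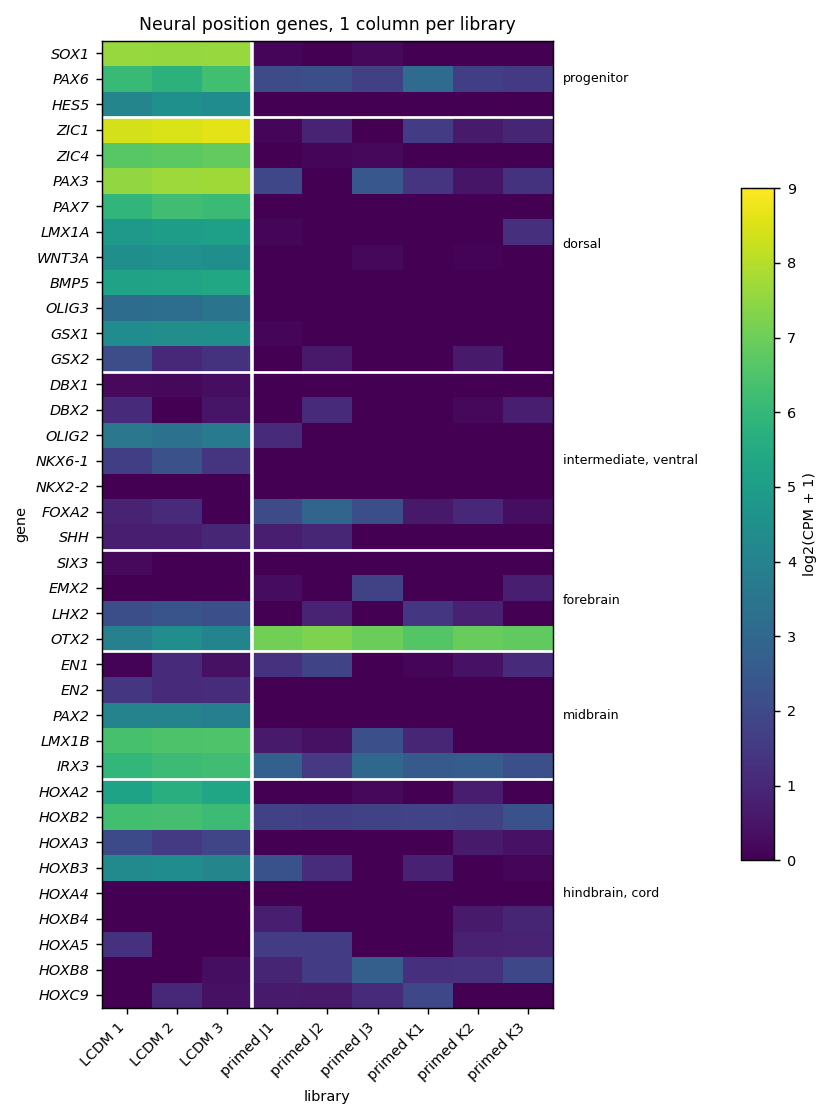
Genes that mark neural position, as log2(CPM + 1) in colour, with 1 column for each of the 3 LCDM (EPS) and 6 primed libraries and genes in rows by region. Dorsal genes such as ZIC1 (339.5 to 391 CPM in LCDM (EPS)) are bright in all 3 LCDM (EPS) libraries, as are LMX1B, HOXA2, and HOXB2, whereas OTX2 is brighter in primed libraries.

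Proneural factors, which commit progenitors to become neurons, rose in 20 of 22 cases and fell in none (0 also at an unadjusted p under 0.05 and by DESeq2), with a median log2 fold change of 7.27, or 5.16 with the 7 genes at the floor in primed cells set to their bounds. NEUROG2, a proneural factor of the basic helix-loop-helix family, was found at 24.98, 28.4, and 20.4 CPM in LCDM (EPS) and 0 to 0.941 CPM with a median of 0 in primed libraries (log2 fold change 7.08 ± 0.82, adjusted p = 5.1e-06). INSM1, a zinc-finger factor of newborn neurons, was at 112, 119, and 112 CPM and at 0 CPM in all 6 primed libraries, at least 267-fold higher (adjusted p = 1.3e-09). Neither factor was quantifiable at the primed median. NHLH1 and NHLH2, which follow the proneural factors, reached 182, 183, and 185 CPM and 227, 217, and 254 CPM (log2 fold change 8.76 ± 0.38, adjusted p = 2e-10 and log2 fold change 10.43 ± 0.38, adjusted p = 3.8e-11). NEUROD4 was at least 105-fold and NEUROD1 at least 36.7-fold higher. POU4F1, a factor of sensory neurons, rose to 36.9, 44.98, and 40.1 CPM from 0 to 1.56 CPM with a median of 0 (log2 fold change 7.40 ± 0.79, adjusted p = 2.2e-06). ISL1, a factor of motor and sensory neurons, was not called (log2 fold change 1.11 ± 1.48, adjusted p = 0.55) but was higher without the primed library J3 (log2 fold change 3.85, adjusted p = 0.015) and against the primed columns lettered K alone (3.60, adjusted p = 0.028), and NEUROG3, NEUROD6, and ATOH1 stayed under the filter.

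Structural genes of neurons followed. Of 28, 25 rose, 2 fell, and RBFOX3, which encodes the mature marker NeuN, was not called (15.5, 15.3, and 12.6 CPM against 5.61 to 12.96 CPM with a median of 7.09, log2 fold change 0.76 ± 0.33, adjusted p = 0.065). It was higher without the primed library J1 or J3 (adjusted p = 0.031 and 0.02) and against the primed columns lettered K alone (log2 fold change 1.11, adjusted p = 0.0033). The median log2 fold change was 4.11, and the summed level of the list lay between 11360 and 12120 CPM in LCDM (EPS) against 1635 to 2077 CPM in primed libraries. TUBB3, the neuronal β-tubulin, rose to 699, 720.2, and 695 CPM from 7.04 to 12.9 CPM with a median of 10.4 (log2 fold change 6.11 ± 0.13, adjusted p = 4.1e-13), and DCX, doublecortin of migrating neurons, to 866, 786, and 907 CPM from 0 to 4.53 CPM with a median of 2.53 (log2 fold change 8.36 ± 0.32, adjusted p = 6e-11). CNTN2, an axonal adhesion molecule of early projection neurons, reached 1987, 1936, and 2103 CPM from 1.86 to 6.26 CPM with a median of 3.33 (log2 fold change 9.14 ± 0.22, adjusted p = 7e-13). These are high values in all 3 LCDM (EPS) libraries, with no overlap. MAP2 of dendrites rose to 1382, 1263, and 1462 CPM from 28.3 to 102 CPM with a median of 76.6 (log2 fold change 4.195 ± 0.24, adjusted p = 3.5e-09), and the neurofilament gene NEFL to 239.9, 188, and 233 CPM from 3.46 to 6.92 CPM with a median of 4.31 (log2 fold change 5.54 ± 0.17, adjusted p = 8.9e-12). The synaptic genes were lower in level, SYP rising to 15.8, 17.4, and 16.6 CPM (log2 fold change 3.55 ± 0.66, adjusted p = 0.00037) and SNAP25 to 49.6, 40.5, and 47.4 CPM (log2 fold change 5.36 ± 0.66, adjusted p = 8.5e-06). SYT1, a calcium sensor of synaptic vesicles, and L1CAM, an axonal adhesion molecule, fell (log2 fold change -1.73 ± 0.13, adjusted p = 5.7e-08 and log2 fold change -1.10 ± 0.13, adjusted p = 7.6e-06).

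The gene with the largest bound on its rise, over all genes tested, was an axon guidance receptor. DCC, the netrin receptor of commissural axons, stood at 886, 859.6, and 969.8 CPM in LCDM (EPS) and 0 to 0.223 CPM with a median of 0 in primed libraries, at least 2110-fold higher (adjusted p = 2.3e-14). ROBO3, the receptor that lets commissural axons cross the midline, reached 402, 413, and 437 CPM from 0.709 to 4 CPM with a median of 2.83 (log2 fold change 7.33 ± 0.23, adjusted p = 7.6e-12), and SLIT1, a midline repellent, 263, 265, and 287 CPM from 0 to 0.863 CPM with a median of 0.210 (log2 fold change 9.63 ± 0.28, adjusted p = 3.9e-12). All 3 were near 0 in primed cells. Among 30 axon guidance genes, 20 rose and 6 fell. SEMA3A, a repellent ligand, fell furthest, to 12.3, 12.2, and 10.1 CPM from 163 to 256 CPM with a median of 238 (log2 fold change -4.31 ± 0.17, adjusted p = 6.1e-11), followed by the netrin receptor UNC5D (log2 fold change -3.79 ± 0.18, adjusted p = 4.1e-10). NTN1, the netrin ligand itself, was not called (2.73, 3.72, and 2.33 CPM against 1.15 to 4.43 CPM with a median of 1.69, log2 fold change 0.44 ± 0.69, adjusted p = 0.61).

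Of 30 ion channel and neurotransmitter receptor genes tested, 19 rose and 2 fell. CACNG4, a subunit that escorts AMPA receptors, rose to 55.9, 52.8, and 41.6 CPM from 0 to 0.760 CPM with a median of 0 (log2 fold change 8.14 ± 0.62, adjusted p = 7.4e-08), and SCN3A, a sodium channel of immature neurons, to 84.9, 61.6, and 95.02 CPM from 0 to 1.77 CPM with a median of 0 (log2 fold change 7.02 ± 0.62, adjusted p = 3.5e-07). GRIA2, an AMPA receptor subunit, stood at 44.9, 34.3, and 39.7 CPM against 0 to 2.56 CPM with a median of 0.867 (log2 fold change 5.27 ± 0.56, adjusted p = 2e-06). SCN1A and SCN2A, sodium channels of more mature neurons, stayed near the primed range and were not called (log2 fold change 1.14 ± 0.91, adjusted p = 0.3 and log2 fold change 1.59 ± 0.81, adjusted p = 0.11), nor was the NMDA receptor gene GRIN1 (log2 fold change -1.38 ± 0.74, adjusted p = 0.13). With the 8 groups fitted together, SCN2A was called higher (adjusted p = 0.036) and GRIN1 lower (adjusted p = 0.048). KCND2, a potassium channel, fell (log2 fold change -4.38 ± 0.36, adjusted p = 1.5e-07).

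Markers of other cell types that a culture can hold were examined in the same way. Among 19 neural crest genes, 8 rose (42.1%) and 6 fell (31.6%), against 28.2% and 28.9% over all genes tested. TFAP2B rose to 266, 264, and 263 CPM from 0 to 3.46 CPM with a median of 0.222 (log2 fold change 8.28 ± 0.55, adjusted p = 1.6e-08) and TFAP2A, which crest shares with dorsal neural tube, amnion, and trophoblast, to 181, 189, and 172 CPM from 1.33 to 6.37 CPM with a median of 2.83 (log2 fold change 5.78 ± 0.31, adjusted p = 2e-09). Of the defining crest genes, SOX10 was not called (2.16, 4.62, and 5.41 CPM against 0 to 2.71 CPM with a median of 1.95, log2 fold change 1.44 ± 1.11, adjusted p = 0.29), FOXD3, which primed PSCs also express, fell to 0.740, 0, and 0.866 CPM from 17.5 to 41.1 CPM with a median of 28.9 (log2 fold change -5.78 ± 0.60, adjusted p = 1.7e-06), and SNAI2 fell to 2.62, 4.01, and 0.920 CPM from 4.49 to 11.3 CPM with a median of 5.35 (log2 fold change -1.45 ± 0.56, adjusted p = 0.041), a call that was lost without LCDM (EPS) library 1 or 3 or primed library J3 or K3 (adjusted p = 0.054 to 0.15) and against the J columns alone (adjusted p = 0.098). The summed level of the list was 892 to 908 CPM in LCDM (EPS) and 243 to 431 CPM in primed libraries, carried largely by TFAP2A, TFAP2B, and PAX3. None of these 3 defining crest genes was called higher in the main test, and SOX10 was called higher with the 8 groups fitted together (1.58, adjusted p = 0.016).

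Fibroblast and mesenchyme genes fell in 13 of 22 cases and rose in 5. COL1A2, a chain of type I collagen, fell to 136, 161, and 107 CPM from 339.9 to 545 CPM with a median of 451 (log2 fold change -1.76 ± 0.16, adjusted p = 4.7e-07), and TAGLN, an actin-binding protein of contractile cells, to 70.4, 71.4, and 64.3 CPM from 866 to 1213 CPM with a median of 965 (log2 fold change -3.85 ± 0.11, adjusted p = 3.7e-12). DCN and LUM, proteoglycans of fibroblast matrix, were at 0 in all 6 primed libraries and at 4.55, 9.99, and 6.82 CPM and 3.47, 4.67, and 2.06 CPM in LCDM (EPS), at least 16.6-fold and 7.93-fold higher (adjusted p = 8e-05 and 0.00063), and COL3A1 and POSTN were not called (log2 fold change 0.21 ± 0.26, adjusted p = 0.51 and log2 fold change 1.48 ± 0.78, adjusted p = 0.12). POSTN was called higher without the primed library J1 (adjusted p = 0.043), against the primed columns lettered K alone (log2 fold change 2.18, adjusted p = 0.00075), and with the 8 groups fitted together (adjusted p = 0.0077). VIM, an intermediate filament of progenitors and mesenchyme, rose to 2278, 2398, and 2076 CPM from 454 to 839.5 CPM with a median of 640 (log2 fold change 1.80 ± 0.15, adjusted p = 2.4e-07). The summed level of the list overlapped between the groups, at 3997 to 4905 CPM in LCDM (EPS) and 4195 to 6971 CPM in primed libraries. The part of these cells in the other results was not tested.

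Trophoblast, endoderm, and mesoderm genes moved in both directions, and the summed levels of the endoderm and mesoderm lists overlapped between the groups. Of 10 trophoblast and amnion genes tested, 5 fell and 2 rose, the latter being TFAP2A and TFAP2B, which made up most of the summed level of 482 to 503 CPM in LCDM (EPS) against 237 to 289 CPM in primed libraries. KRT7 was at 0 in LCDM (EPS), at least 17.5-fold lower (adjusted p = 0.00023), GATA3 was not called (log2 fold change -2.13 ± 1.72, adjusted p = 0.31), and CDX2 did not pass the filter. In the endoderm list, 1 of 15 genes rose (2 without LCDM (EPS) library 1), CXCR4, a chemokine receptor that migrating neurons also carry, to 125, 138, and 119.7 CPM from 0 to 11.7 CPM with a median of 0.458 (log2 fold change 5.88 ± 0.79, adjusted p = 2e-05), and 5 fell. GATA4 (1.59, 3.87, and 2.06 CPM against 0 to 7.86 CPM with a median of 0.401) and GATA6 (1.94, 3.11, and 2.76 CPM against 0 to 7.29 CPM with a median of 0.447) were not called (log2 fold change 0.34 ± 1.29, adjusted p = 0.84 and log2 fold change 0.64 ± 1.43, adjusted p = 0.73), and SOX17 did not pass the filter. Against the primed columns lettered K alone, where both genes were near 0, GATA4 and GATA6 were higher (adjusted p = 0.0073 and 0.00069). In the mesoderm list, 3 of 10 genes rose and 2 fell, a split that was turned under 3 of the 15 settings. The shares were 30% and 20%, against 28.2% and 28.9% over all genes tested. KDR, the VEGF receptor, fell to 2.504, 3.54, and 2.76 CPM from 50.9 to 82.4 CPM with a median of 71.5 (log2 fold change -4.52 ± 0.23, adjusted p = 1.1e-09), and LHX1, a factor of the streak and of interneurons, rose to 84.4, 76, and 87.8 CPM from 0.622 to 16.1 CPM with a median of 0.875 (log2 fold change 4.24 ± 0.76, adjusted p = 0.00028). In the list of blood, vessel, muscle, and liver genes, 5 of 9 fell and PECAM1 rose (log2 fold change 2.95 ± 0.62, adjusted p = 0.0011).

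**Figure D3:**
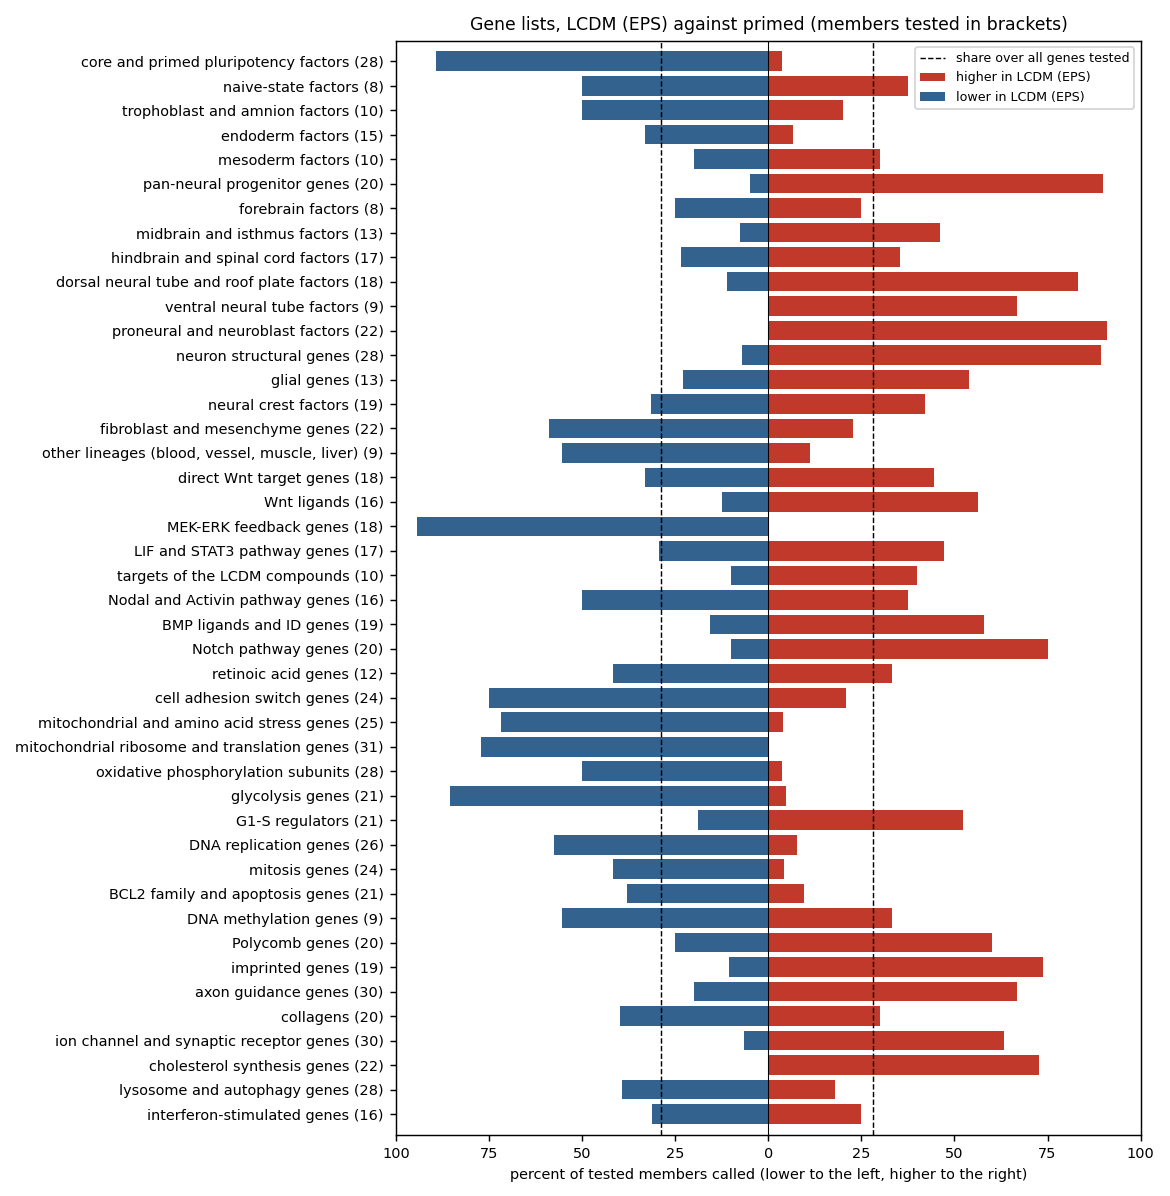
Share of the tested members of each gene list that were called higher (right) or lower (left) in LCDM (EPS) than in primed cells, in percent, with the number tested in brackets and dashed lines at the shares over all genes tested, 28.2% higher and 28.9% lower. Proneural, pan-neural progenitor, and neuron structural lists reach furthest to the right (90.9%, 90%, and 89.3%), and MEK-ERK feedback and core pluripotency lists furthest to the left (94.4% and 89.3%).

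Of 16 genes on which the compounds of the cocktail act, 10 passed the filter on low counts. GSK3B, the kinase that CHIR99021 inhibits, rose to 329, 325, and 364 CPM from 100.4 to 145 CPM with a median of 122 (log2 fold change 1.48 ± 0.10, adjusted p = 2e-08). CHRM3, a muscarinic receptor, was at 6.94, 4.90, and 4.12 CPM against 0 to 0.108 CPM with a median of 0, at least 12.4-fold higher (adjusted p = 2.2e-05), whereas HRH1, the histamine receptor that dimethindene blocks, did not pass the filter. PARP1, which minocycline can inhibit, fell slightly (log2 fold change -0.33 ± 0.062, adjusted p = 0.00042). IL6ST, the gp130 chain through which LIF signals, rose to 213, 224, and 216 CPM from 32.9 to 92.03 CPM with a median of 59.7 (log2 fold change 1.83 ± 0.22, adjusted p = 6.9e-06), and LIFR, its partner, was not called (55.1, 59.9, and 58.9 CPM against 33.6 to 64.8 CPM with a median of 45.4, log2 fold change 0.30 ± 0.20, adjusted p = 0.21) but was higher against the J columns alone (0.70, adjusted p = 0.0018). Of the 10 targets tested, 4 rose and 1 fell.

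LIF acts through JAK kinases and STAT3. STAT3 itself was not called (154, 161, and 149 CPM against 100.2 to 216 CPM with a median of 148, log2 fold change 0.044 ± 0.21, adjusted p = 0.88). It was higher against the primed columns lettered J alone (log2 fold change 0.54, adjusted p = 0.0011) and lower against those lettered K alone (-0.31, adjusted p = 0.011). These counts would include reads of the STAT3-ERT2 transgene wherever they match. SOCS3, the usual early target of STAT3, was lower in LCDM (EPS) than in primed cells, at 19.8, 21.1, and 22.2 CPM against 23.3 to 57.8 CPM with a median of 40.8 (log2 fold change -0.88 ± 0.26, adjusted p = 0.01), a call that was lost against the J columns alone (-0.43, adjusted p = 0.13), and so was PIM1, a kinase of the same response, at 30.3, 32.7, and 28.4 CPM against 143 to 254 CPM with a median of 198 (log2 fold change -2.71 ± 0.18, adjusted p = 2.3e-08). SOCS2 and CISH, targets of STAT5 and STAT3, rose instead (log2 fold change 2.15 ± 0.18, adjusted p = 2.6e-07 and log2 fold change 2.18 ± 0.48, adjusted p = 0.0014). CNTFR, the receptor for ciliary neurotrophic factor, was the member that rose most, to 119.5, 146, and 124 CPM from 0.599 to 2 CPM with a median of 1.09 (log2 fold change 6.70 ± 0.23, adjusted p = 2e-11). In the 17 genes of this pathway, 8 rose (47.1%) and 5 fell (29.4%), against 28.2% and 28.9% over all genes tested.

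Direct targets of Wnt and β-catenin did not move together. AXIN2, the general feedback target, rose to 144, 146, and 149 CPM from 4.43 to 10.6 CPM with a median of 6.75 (log2 fold change 4.37 ± 0.18, adjusted p = 1.4e-10), and LEF1, a target and a partner of β-catenin, to 17.98, 19.7, and 20.1 CPM from 0 to 0.887 CPM with a median of 0 (log2 fold change 6.85 ± 0.88, adjusted p = 1.3e-05). RNF43, ZNRF3, and NKD1, feedback inhibitors of the pathway, rose as well (log2 fold change 2.68 ± 0.44, adjusted p = 0.00014, log2 fold change 1.25 ± 0.15, adjusted p = 7.2e-06, and log2 fold change 2.35 ± 0.36, adjusted p = 7.1e-05). MYC, a target in colon cells and a gene of primed PSCs, instead fell to 9.68, 2.88, and 1.73 CPM from 326 to 382 CPM with a median of 355 (log2 fold change -6.25 ± 0.39, adjusted p = 9.7e-09), and FZD7, the Wnt receptor of PSCs, to 70.5, 76.2, and 63.5 CPM from 391 to 672 CPM with a median of 495 (log2 fold change -2.87 ± 0.17, adjusted p = 6.1e-09). The groups were apart in all of these genes, in opposite directions. Of 18 targets tested, 8 rose (44.4%) and 6 fell (33.3%), with a median log2 fold change of 0.43. Over all genes tested, the shares were 28.2% and 28.9%. TBXT and SP5, targets in PSCs and the primitive streak, did not pass the filter.

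Wnt ligands rose in 9 of 16 cases and fell in 2. WNT7B was at 31.98, 31.6, and 24.1 CPM and at 0 CPM in all 6 primed libraries, at least 68.2-fold higher (adjusted p = 2.1e-07). WNT3 rose to 75.3, 73.7, and 59.2 CPM from 0.760 to 3.46 CPM with a median of 2.10 (log2 fold change 5.08 ± 0.34, adjusted p = 1.9e-08), WNT1, a ligand of the dorsal midline, to 17.8, 23.3, and 18.3 CPM from 0 to 1.40 CPM with a median of 0 (log2 fold change 5.62 ± 0.90, adjusted p = 1e-04), and WLS, which carries Wnt proteins to the cell surface, to 300.2, 314, and 283 CPM from 11.4 to 34.96 CPM with a median of 19.9 (log2 fold change 3.70 ± 0.25, adjusted p = 2.1e-08). WNT8A and WNT5A, ligands of the gastrulating embryo, fell (log2 fold change -5.74 ± 0.74, adjusted p = 1.5e-05 and log2 fold change -1.83 ± 0.16, adjusted p = 2.3e-07).

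Feedback genes of MEK-ERK signaling fell almost without exception. The cocktail contains no MEK inhibitor, and the cause of these falls was not tested. Of 18 genes, 17 fell and none rose (0 also at an unadjusted p under 0.05 and by DESeq2), with a median log2 fold change of -2.50. DUSP6, the ERK phosphatase, fell to 15.4, 16.7, and 16.1 CPM from 523 to 695 CPM with a median of 544 (log2 fold change -5.13 ± 0.12, adjusted p = 8.3e-13), and SPRY4, an inhibitor of receptor signaling, to 10.7, 13.2, and 9.69 CPM from 251 to 488 CPM with a median of 407 (log2 fold change -5.10 ± 0.23, adjusted p = 2.6e-10). EGR1, an immediate early gene, stood at 89.9, 78.5, and 76.4 CPM against 1107 to 1772 CPM with a median of 1489 (log2 fold change -4.15 ± 0.16, adjusted p = 7.6e-11), and ETV4, a factor that FGF signaling induces, at 10.6, 13.7, and 11.5 CPM against 146 to 217 CPM with a median of 180.1 (log2 fold change -3.92 ± 0.17, adjusted p = 1.9e-10). DUSP4 was the only called member whose ranges overlapped (41.1, 43.8, and 39.4 CPM against 31.7 to 110.4 CPM with a median of 77.6, log2 fold change -0.85 ± 0.32, adjusted p = 0.035), and its call was lost without any 1 of the LCDM (EPS) libraries or of the primed libraries lettered K (adjusted p = 0.069 to 0.11) and against the J columns alone (-0.16, adjusted p = 0.56). The summed level of the list was 611 to 644 CPM in LCDM (EPS) and 4202 to 4722 CPM in primed libraries.

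In the Nodal and Activin pathway, 8 of 16 genes fell (50%) and 6 rose (37.5%), against 28.9% and 28.2% over all genes tested. The ligand NODAL fell to 5.58, 3.77, and 2.003 CPM from 22.3 to 56.7 CPM with a median of 36.6 (log2 fold change -3.30 ± 0.37, adjusted p = 3.8e-06). The ligand INHBA fell as well (log2 fold change -3.48 ± 0.31, adjusted p = 3.8e-07). Falls were also found for the inhibitor SMAD7 (log2 fold change -2.22 ± 0.19, adjusted p = 2.6e-07) and FOXH1, the DNA-binding partner of SMAD proteins, which fell to 0.512, 0.471, and 0.162 CPM from 39.01 to 51.3 CPM with a median of 40.4 (log2 fold change -6.75 ± 0.30, adjusted p = 3e-10). The receptors ACVR1B (log2 fold change 0.50 ± 0.12, adjusted p = 0.0021) and ACVR2A (log2 fold change 0.74 ± 0.18, adjusted p = 0.0029) and the transducers SMAD3 (log2 fold change 0.82 ± 0.12, adjusted p = 4.5e-05) and SMAD4 (log2 fold change 0.69 ± 0.14, adjusted p = 0.00083) rose.

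BMP ligands and their responders were mostly higher, with 11 of 19 rising and 3 falling (1 without LCDM (EPS) library 1 or 3). BMP5, a roof plate ligand, was at 35.5, 37.7, and 39.7 CPM and at 0 CPM in all 6 primed libraries, at least 87.8-fold higher (adjusted p = 6.5e-08), and BMP7 rose to 62.9, 54.8, and 47.6 CPM from 6.38 to 14.9 CPM with a median of 9.33 (log2 fold change 2.46 ± 0.23, adjusted p = 4.8e-07). ID2 and ID4, inhibitors of proneural factors, rose (130, 129.9, and 143 CPM against 11.5 to 21.5 CPM with a median of 15.6, log2 fold change 3.10 ± 0.16, adjusted p = 1.3e-09, and log2 fold change 2.23 ± 0.37, adjusted p = 0.00016), whereas ID1, a more direct BMP target, fell slightly (log2 fold change -0.48 ± 0.18, adjusted p = 0.031), a call that was lost without any 1 of the LCDM (EPS) libraries or of the primed libraries lettered K (adjusted p = 0.053 to 0.11) and against the J columns alone (-0.25, adjusted p = 0.27). BMPR1B, a receptor of the dorsal tube, rose to 115, 97.5, and 108 CPM from 4.14 to 18.1 CPM with a median of 7.58 (log2 fold change 3.63 ± 0.31, adjusted p = 2.3e-07).

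Notch pathway genes rose in 15 of 20 cases and fell in 2. The ligands DLL1 (235, 234, and 249.6 CPM against 0.143 to 2.48 CPM with a median of 0.866, log2 fold change 7.58 ± 0.34, adjusted p = 2.9e-10) and DLL3 (67.2, 70.2, and 63.5 CPM against 0.553 to 4.02 CPM with a median of 1.96, log2 fold change 5.01 ± 0.35, adjusted p = 2.7e-08) were near 0 in primed cells. The receptor NOTCH1 rose to 368, 372, and 399 CPM from 110.1 to 171 CPM with a median of 150.4 (log2 fold change 1.38 ± 0.11, adjusted p = 8.6e-08), and NOTCH3 rose alike (log2 fold change 1.42 ± 0.071, adjusted p = 8.8e-10). Of the effectors, HES4 and HEYL rose (log2 fold change 4.64 ± 0.28, adjusted p = 7.5e-09 and log2 fold change 2.57 ± 0.28, adjusted p = 2.3e-06) together with HES5, given above, while HES1, which many cell types use, fell to 16.7, 16.8, and 16.8 CPM from 30.8 to 45.7 CPM with a median of 38.5 (log2 fold change -1.18 ± 0.17, adjusted p = 4.6e-05), and so did HEY2 (log2 fold change -3.13 ± 0.95, adjusted p = 0.012). In the retinoic acid list, 4 of 12 genes rose (33.3%) and 5 fell (41.7%), against 28.2% and 28.9% over all genes tested. CRABP1, a binding protein of hindbrain and crest, rose to 742, 843, and 764 CPM from 5.14 to 23.7 CPM with a median of 9.30 (log2 fold change 6.17 ± 0.31, adjusted p = 9.6e-10), and the receptor genes RARG and RARB fell (log2 fold change -6.06 ± 0.52, adjusted p = 2.4e-07 and log2 fold change -1.91 ± 0.42, adjusted p = 0.0014).

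**Figure D4:**
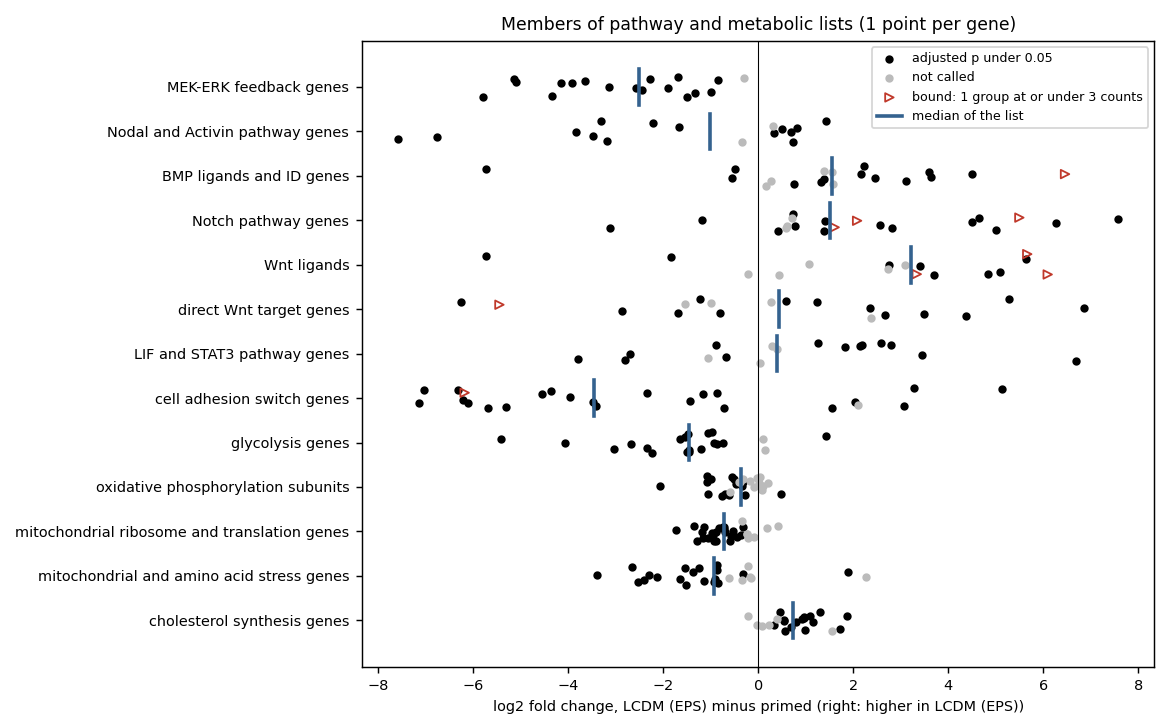
Log2 fold change of LCDM (EPS) over primed cells for each tested member of the signaling, adhesion, and metabolic lists, 1 point per gene, black where the adjusted p is under 0.05, with a bar at the list median and open triangles for genes given as bounds. MEK-ERK feedback genes lie to the left of 0 (median -2.50) and cholesterol synthesis genes mostly to the right (median 0.74), while Wnt targets lie on both sides (median 0.43).

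Epithelial adhesion genes were lower in LCDM (EPS) cells. Of 24 genes of the cadherin switch and of epithelial junctions, 18 fell and 5 rose. CDH1, E-cadherin, fell to 1.08, 1.32, and 0.325 CPM from 30.6 to 108 CPM with a median of 66.1 (log2 fold change -6.21 ± 0.54, adjusted p = 2.6e-07), and EPCAM, a surface protein of PSCs and epithelia, to 3.70, 3.49, and 2.92 CPM from 147 to 207 CPM with a median of 177 (log2 fold change -5.69 ± 0.16, adjusted p = 3.4e-12). The splicing regulators of epithelial cells ESRP1 and ESRP2 fell to at most 1.46 and 1.02 CPM (log2 fold change -7.04 ± 0.21, adjusted p = 6.9e-12 and log2 fold change -7.13 ± 0.44, adjusted p = 7.4e-09), and the tight junction gene CLDN6 to 5.92, 7.31, and 7.42 CPM from 461 to 527 CPM with a median of 468 (log2 fold change -6.11 ± 0.11, adjusted p = 8.1e-14). The genes that rose were CDH2, given above, CDH4, the polarity gene CRB2, and the repressors of E-cadherin ZEB1 (309, 270.2, and 326 CPM against 22.7 to 46.5 CPM with a median of 35.8, log2 fold change 3.08 ± 0.16, adjusted p = 1.2e-09) and ZEB2 (log2 fold change 2.04 ± 0.14, adjusted p = 2.7e-08). SNAI1 and SNAI2, repressors of E-cadherin in mesoderm and crest, fell (log2 fold change -2.34 ± 0.38, adjusted p = 0.00011 for SNAI1). Integrin ITGA6, the laminin receptor of PSCs, fell to 47.3, 45.8, and 43.1 CPM from 449.6 to 516 CPM with a median of 485 (log2 fold change -3.41 ± 0.086, adjusted p = 1.1e-12).

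Genes of sugar metabolism were lower. Of 21 glycolysis genes, 18 fell and ENO2, the neuronal enolase, rose (62.7, 57.4, and 71.96 CPM against 13.9 to 46.1 CPM with a median of 20.99, log2 fold change 1.43 ± 0.31, adjusted p = 0.0012). SLC2A3, the glucose transporter GLUT3, fell to 14.4, 13.2, and 7.31 CPM from 417 to 566 CPM with a median of 482 (log2 fold change -5.41 ± 0.21, adjusted p = 6.6e-11), HK2, a hexokinase, to 42.97, 39.3, and 33.7 CPM from 268 to 354 CPM with a median of 319 (log2 fold change -3.04 ± 0.12, adjusted p = 7.6e-11), and SLC16A3, a lactate exporter, to 4.16, 4.48, and 6.28 CPM from 41.2 to 141 CPM with a median of 77.9 (log2 fold change -4.07 ± 0.45, adjusted p = 3.3e-06). The summed level of the list was 4761 to 5221 CPM in LCDM (EPS), below the 10530 to 13650 CPM of primed libraries.

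Mitochondrial genes were considered because a tetracycline was present. Of 31 genes of the mitochondrial ribosome and translation, 24 fell and none rose (0 also at an unadjusted p under 0.05 and by DESeq2), with a median log2 fold change of -0.72. MRPL3, a ribosomal protein, fell to 79.2, 77.8, and 70.9 CPM from 166 to 227 CPM with a median of 192 (log2 fold change -1.35 ± 0.10, adjusted p = 9.2e-08), and MRPS2 to 25.8, 19.6, and 21.5 CPM from 57.4 to 98.01 CPM with a median of 71.8 (log2 fold change -1.74 ± 0.17, adjusted p = 1.3e-06). Of 28 nuclear-encoded subunits of oxidative phosphorylation, 14 fell and SDHA rose (log2 fold change 0.48 ± 0.15, adjusted p = 0.015), with a smaller median of -0.36. The call of SDHA was lost without LCDM (EPS) library 1 (edgeR adjusted p = 0.062). The genes that respond to mitochondrial or amino acid stress were lower too, with 18 of 25 falling and DDIT4 rising (log2 fold change 1.90 ± 0.26, adjusted p = 2.7e-05), or 2 rising without primed library K3. ATF4, the factor of the integrated stress response, fell to 378, 357, and 340.2 CPM from 573 to 794 CPM with a median of 636 (log2 fold change -0.87 ± 0.10, adjusted p = 7.9e-06), its target PCK2 to 4.04, 2.31, and 4.06 CPM from 32 to 40.1 CPM with a median of 37.4 (log2 fold change -3.40 ± 0.24, adjusted p = 3.3e-08), and HSPD1, the mitochondrial chaperone HSP60, to 348, 364, and 315 CPM from 1001 to 1130 CPM with a median of 1081 (log2 fold change -1.66 ± 0.066, adjusted p = 9.2e-11). The targets CHAC1 and SESN2 were not called (log2 fold change -0.62 ± 0.55, adjusted p = 0.36 and log2 fold change -0.14 ± 0.21, adjusted p = 0.6). For MRPL3, MRPS2, ATF4, PCK2, and HSPD1, the 2 groups did not overlap.

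Sterol synthesis moved the other way. Of 22 cholesterol genes, 16 rose and none fell (0 also at an unadjusted p under 0.05 and by DESeq2), and the median log2 fold change was 0.74. HMGCS1, which makes HMG-CoA, rose to 748, 686, and 692 CPM from 193 to 234 CPM with a median of 215 (log2 fold change 1.72 ± 0.074, adjusted p = 1.8e-10), and SQLE, squalene epoxidase, to 255, 270.4, and 262 CPM from 108 to 128 CPM with a median of 116 (log2 fold change 1.16 ± 0.079, adjusted p = 2.2e-08). SREBF2, the factor that drives these genes, rose by 0.33 ± 0.062 on the log2 scale (adjusted p = 0.00047).

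Among 21 G1-S regulators, 11 rose and 4 fell (2 without LCDM (EPS) library 2). The CDK inhibitors CDKN1C (102, 104, and 109 CPM against 4.24 to 24.3 CPM with a median of 14.4, log2 fold change 2.75 ± 0.33, adjusted p = 7.3e-06) and CDKN1B, which encodes p27 (104, 98.6, and 92.3 CPM against 9.38 to 27.6 CPM with a median of 22.4, log2 fold change 2.30 ± 0.28, adjusted p = 9.5e-06), rose, and both are known from cells that leave the cycle. CCND1 and CCNE2 rose (log2 fold change 0.59 ± 0.16, adjusted p = 0.006 and log2 fold change 2.05 ± 0.23, adjusted p = 3.7e-06), while CCND2 and CCNE1 fell (log2 fold change -1.70 ± 0.13, adjusted p = 8.3e-08 and log2 fold change -1.49 ± 0.13, adjusted p = 2.3e-07). DNA replication genes fell in 15 of 26 cases and rose in 2 (1 without LCDM (EPS) library 1 or 2), the falls reaching at most 1.25 on the log2 scale, with MCM3, a subunit of the replicative helicase, at 206, 196, and 230.1 CPM against 432 to 568 CPM with a median of 486 (log2 fold change -1.22 ± 0.10, adjusted p = 1.5e-07). Of 24 mitosis genes, 10 fell and CENPE rose (2 rose without primed library K2), and MKI67, the proliferation marker Ki-67, fell only to 1190, 1209, and 1202 CPM from 1408 to 1526 CPM with a median of 1473 (log2 fold change -0.29 ± 0.047, adjusted p = 0.00011).

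Apoptosis genes fell in 8 of 21 cases and rose in 2 (1 without LCDM (EPS) library 2 or 3, and 4 without primed library K3). The shares were 38.1% lower and 9.52% higher, against 28.9% and 28.2% over all genes tested. CASP8, the initiator caspase of death receptors, fell to 0.797, 0.471, and 0.271 CPM from 19.5 to 28.4 CPM with a median of 25.9 (log2 fold change -5.59 ± 0.36, adjusted p = 1.1e-08), PMAIP1, which encodes NOXA and is high in PSCs, to 0.911, 0.377, and 1.35 CPM from 17.3 to 33.3 CPM with a median of 29.4 (log2 fold change -4.98 ± 0.40, adjusted p = 1.2e-07), and the effector BAX, less so, to 21.7, 19.1, and 20.3 CPM from 36.7 to 59.8 CPM with a median of 39.5 (log2 fold change -1.06 ± 0.18, adjusted p = 0.00021). HRK, a death gene of neurons, rose (10.02, 14.8, and 12.7 CPM against 1.34 to 6 CPM with a median of 1.76, log2 fold change 2.29 ± 0.49, adjusted p = 0.0012). Neither BCL2 nor BCL2L1, the main survival genes, was called (log2 fold change 1.12 ± 0.54, adjusted p = 0.089 and log2 fold change 0.25 ± 0.14, adjusted p = 0.15), but both were higher against the J columns alone (1.52, adjusted p = 0.025, and 0.47, adjusted p = 0.013), and MCL1 fell (log2 fold change -0.50 ± 0.11, adjusted p = 0.0015).

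The enzymes of DNA methylation were split. DNMT3B, the de novo methyltransferase of the primed state, fell to 113, 92.5, and 91.4 CPM from 2936 to 3412 CPM with a median of 3071 (log2 fold change -4.97 ± 0.089, adjusted p = 8.1e-14), and DNMT3A to 139.5, 139.9, and 142 CPM from 346 to 400.1 CPM with a median of 379.5 (log2 fold change -1.42 ± 0.078, adjusted p = 2.4e-09). DNMT1, which maintains methylation, was not called (315, 348, and 327 CPM against 296 to 354 CPM with a median of 321, log2 fold change 0.036 ± 0.079, adjusted p = 0.72), and its cofactor UHRF1 rose (282, 289, and 288 CPM against 159 to 216 CPM with a median of 188, log2 fold change 0.59 ± 0.092, adjusted p = 8.2e-05). Of the TET enzymes that remove methylation, TET1, the form of PSCs, fell (65.5, 70.7, and 71.4 CPM against 167 to 261 CPM with a median of 216, log2 fold change -1.67 ± 0.13, adjusted p = 9.9e-08), while TET2 (172, 159.7, and 172 CPM against 12.5 to 26.2 CPM with a median of 18.7, log2 fold change 3.14 ± 0.17, adjusted p = 2.6e-09) and TET3 (log2 fold change 0.84 ± 0.19, adjusted p = 0.0016) rose. The groups were apart in each of these genes except DNMT1.

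Polycomb genes rose in 12 of 20 cases and fell in 5. BMI1, the PRC1 subunit of neural stem cells, rose to 122, 93.9, and 124 CPM from 8.001 to 29.2 CPM with a median of 17.2 (log2 fold change 2.55 ± 0.28, adjusted p = 2.6e-06) and EZH2, the H3K27 methyltransferase, to 239, 266, and 241 CPM from 134 to 164 CPM with a median of 153 (log2 fold change 0.71 ± 0.084, adjusted p = 6.5e-06). JARID2, a PRC2 cofactor of PSCs, fell to 90.04, 92.5, and 95.9 CPM from 623 to 753 CPM with a median of 708 (log2 fold change -2.92 ± 0.084, adjusted p = 3.7e-12), and so did PHC1 (log2 fold change -1.99 ± 0.068, adjusted p = 1.8e-11) and CBX7 (log2 fold change -2.40 ± 0.32, adjusted p = 2.1e-05), PRC1 subunits of the pluripotent state. Imprinted genes rose in 14 of 19 cases and fell in 2, with a median log2 fold change of 2.12. PEG10 rose to 932, 919.9, and 912 CPM from 92.5 to 150.1 CPM with a median of 119 (log2 fold change 2.94 ± 0.14, adjusted p = 3.6e-10), MEST to 896, 888, and 846 CPM from 137 to 156 CPM with a median of 148 (log2 fold change 2.59 ± 0.063, adjusted p = 9e-13), and DLK1, a Notch ligand homolog, to 60.1, 57.1, and 60.05 CPM from 0.138 to 3 CPM with a median of 1.24 (log2 fold change 5.57 ± 0.45, adjusted p = 1.2e-07). IGF2R and PHLDA2 fell (log2 fold change -0.93 ± 0.069, adjusted p = 5.7e-08 and log2 fold change -5.09 ± 0.48, adjusted p = 6.3e-07). Counts per gene do not tell whether 1 or both alleles were read.

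By a rule on the size of the change, the 12 genes that rose most and the 12 that fell most were listed among those with a mean of at least 8 CPM in the higher group and no overlap. Besides DCC, INSM1, PAX7, NEUROD4, SOX1, BMP5, and WNT7B, given above, the genes that rose were SSUH2 (215, 230.5, and 204 CPM), CASQ2, a calcium-binding protein of muscle (57.5, 42.6, and 51.1 CPM), ADCYAP1, the neuropeptide PACAP (45.02, 43.5, and 41.8 CPM), UNCX, a homeobox factor of somites and interneurons (38.7, 37.01, and 35.6 CPM), and SLITRK1, a synaptic adhesion protein (29.6, 27.96, and 34.1 CPM). In primed cells all 5 were at the floor, SSUH2 with 1 read in 1 library and the other 4 at 0, and they were at least 505-, 118-, 101-, 86.5-, and 71.3-fold higher, each with an adjusted p of 1.6e-07 or less. Besides NANOG and DPPA2, the genes that fell were GALR1, the galanin receptor (28.3 to 51.5 CPM with a median of 39.7 in primed libraries), VTCN1, an immune checkpoint ligand (105 to 143 CPM with a median of 111), EGR2 (172 to 211 CPM with a median of 181) and EGR4 (16.8 to 43.6 CPM with a median of 26.9), immediate early factors, and SLC38A4 (7.86 to 29.9 CPM with a median of 13.8), MMP1 (9.95 to 21.9 CPM with a median of 13.1), DRD3 (5.92 to 16.3 CPM with a median of 9.83), OVOL2 (2.22 to 21.4 CPM with a median of 8.65), SP140 (5.29 to 12.6 CPM with a median of 8.09), and MPO (2.43 to 13.7 CPM with a median of 8.56). In LCDM (EPS) cells, EGR2 did not exceed 0.285 CPM (log2 fold change -10.47 ± 0.26) and VTCN1 0.341 CPM (-9.99 ± 0.40), and the others were at the floor in all 3 libraries, at least 229-fold lower for GALR1 and 168-fold lower for EGR4.

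To see which differences set LCDM (EPS) cells apart from all other groups and not from primed cells alone, they were tested against each of the other 7 groups in a single fit of the 27 libraries. According to the paper, TL2i cells received tamoxifen, which activates STAT3-ERT2, together with LIF and inhibitors of MEK and GSK3. In its TL-CDK8i variant, a CDK inhibitor took the place of the MEK and GSK3 inhibitors. The other reprogramming protocols were used without tamoxifen. The part of STAT3-ERT2 activity and of the inhibitors in these comparisons was not tested. A gene was called only where it differed in the same direction from all 7, and the 7 comparisons share the LCDM (EPS) libraries. Of 14752 genes, 422 (2.86%) were higher in LCDM (EPS) than in every other group and 521 (3.53%) were lower. By the same rule, E-NHSM had 609 higher and 888 lower genes, TL-CDK8i 619 and 492, and NHSM-v 510 and 579. The counts were smaller for primed cells (378 and 395), t2iLGöY (204 and 260), TL2i (112 and 104), and 4i/L/b (108 and 48). LCDM (EPS) was thus not the group with the most such genes. The 10 highest were taken by the smallest of the 7 fold changes, among genes with a mean of at least 8 CPM in the higher group of every comparison. They included GSX1 (19.8 to 21.6 CPM in LCDM (EPS) libraries and 0 to 0.677 CPM in those of the other groups), PTF1A, a factor of dorsal inhibitory interneurons and pancreas (7.68 to 9.19 CPM in LCDM (EPS) libraries and 0 to 1.24 CPM), and PRDM13, its partner in the dorsal cord (13.2 to 15.9 CPM in LCDM (EPS) libraries and 0 to 1.96 CPM). POU3F3 (228 to 255 CPM in LCDM (EPS) libraries and 0 to 29.4 CPM), ROBO3 (402 to 437 CPM in LCDM (EPS) libraries and 0.709 to 63.99 CPM), EPHA3, an ephrin receptor (496 to 592 CPM in LCDM (EPS) libraries and 6.09 to 95.1 CPM), and UNCX (35.6 to 38.7 CPM in LCDM (EPS) libraries and 0 to 7.44 CPM) were also among them, along with C1H1orf61, MASP1, and CASQ2. In each, the lowest LCDM (EPS) library lay above the highest library of any other group, and the nearest group was t2iLGöY except for GSX1 (TL-CDK8i) and PTF1A and PRDM13 (NHSM-v).

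Of the gene lists, pan-neural progenitor genes gave 9 of 20 members that were higher than in every other group, SOX1, SOX11, SOX21, NES, MSI1, HES6, POU3F2, POU3F3, and DACH1. Neuron structural genes gave 8 of 28, and proneural and Notch genes 5 each, with DLL1, DLL3, and NHLH2 among them. Of the 18 MEK-ERK feedback genes, 1 was lower than in every other group and 0 were higher. Over all genes of that fit, 3.53% were lower and 2.86% higher. Lower than in every other group were 5 of 24 adhesion genes (CDH3, CDH6, CLDN6, SNAI2, and ITGA6), 5 of 20 collagens, and 4 of 28 lysosomal genes. The distance of the higher genes from t2iLGöY varied. Mean levels were 245 against 23.2 CPM for POU3F3, but 358 against 165 CPM for MSI1 and 202 against 124 CPM for SOX11. NEUROD4 and ADCYAP1, which rose against primed cells, had higher means in t2iLGöY (49.6 and 72.8 CPM) than in LCDM (EPS) (45.1 and 43.4 CPM).

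The 10 lowest, taken by the same rule and the same minimum of 8 CPM, included BMP4, the ligand described above (0.114 to 0.866 CPM in LCDM (EPS) libraries and 5.30 to 55.8 CPM in those of the other groups), BCAR3, an adaptor of integrin signaling (1.41 to 2.28 CPM in LCDM (EPS) libraries and 18.4 to 60.5 CPM), and ETS1, a factor downstream of ERK (6.33 to 10.2 CPM in LCDM (EPS) libraries and 79.1 to 398 CPM). DSP, desmoplakin of desmosomes (16.3 to 18.2 CPM in LCDM (EPS) libraries and 164 to 414 CPM), MYC (1.73 to 9.68 CPM in LCDM (EPS) libraries and 31.2 to 382 CPM), and CDH3, P-cadherin (2.003 to 4.05 CPM in LCDM (EPS) libraries and 21.04 to 154 CPM), were also among them, and LIMS2, ANXA3, APOE, and CDH6 completed the 10. MYC was thus lower in LCDM (EPS) cells than in every other group, with the smallest difference from TL2i. Of the pluripotency genes, only L1TD1 and THY1 were lower than in every other group, while POU5F1 and NANOG were not called there. The mean level of NANOG was 0.0347 CPM in LCDM (EPS), 0 in NHSM-v and t2iLGöY, 0.0726 in 4i/L/b, 0.317 in TL2i, 74 in TL-CDK8i, 169 in E-NHSM, and 134 CPM in primed cells. Its order below TL2i is not resolved at this depth.

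**Figure D5:**
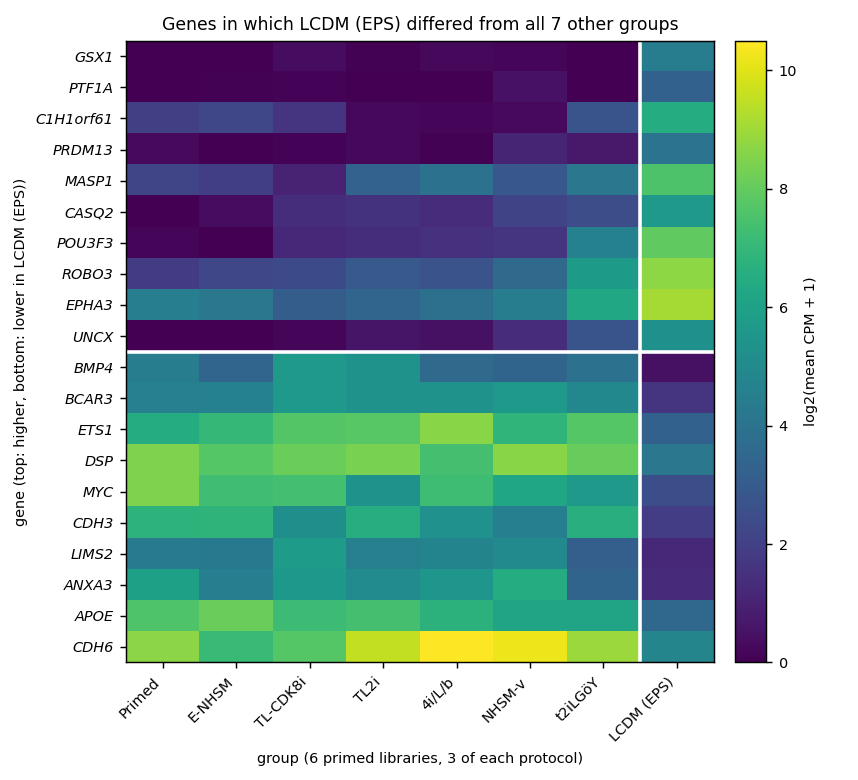
Mean CPM per group, as log2(mean CPM + 1) in colour, of the 10 highest and 10 lowest genes in which LCDM (EPS) cells differed from each of the other 7 groups, with 6 primed libraries and 3 of each protocol. The LCDM (EPS) column is brighter than all others in the upper block (GSX1, 20.8 against at most 0.263 CPM) and darker in the lower block (MYC, 4.76 against at least 39.3 CPM).

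Genes that the study shows in a heat map of reprogrammed and primed cells were selected by it on these samples and are not independent evidence of direction. Of the 18 listed as lower, all fell in LCDM (EPS) cells, and of the 79 listed as higher and tested, 66 rose and 13 fell. The members that moved against their listed direction fell by at most 1.195 on the log2 scale.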

How the data were processed

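Poly(A) RNA was sequenced as single reads (NextFlex Rapid Directional mRNA-Seq libraries, NextSeq500), and the authors deposited raw read counts per gene symbol for each library. The submitters' processing notes name bcl2fastq, cutadapt, HISAT2, and HTSeq; versions, genome build, annotation, and the handling of reads from mouse feeder cells are not given in the sources used here. All 17967 genes of the 2 tables of counts were joined by symbol, and no column was left over. Libraries were grouped by the labels. The primed columns carry the letters J and K, which the labels do not tie to single samples, so that these 6 libraries are named by column.

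Counts were normalized by TMM and tested with edgeR 4.0.16 (glmQLFit and glmQLFTest, R 4.3.3, limma 3.58.1) after filterByExpr, with Benjamini-Hochberg adjustment over all genes tested and a threshold of 0.05. CPM in the text are scaled by TMM over the 27 libraries. A gene with at most 3 counts in every library of a group is given as a bound, which is the mean of the other group divided by the highest CPM that 3 counts make in a library of the low group (0.429 CPM in primed and 0.171 CPM in LCDM (EPS) libraries). Scripts were tested on simulated counts for 6 against 3 libraries, in which a small part of the genes was changed. Of the changes of 1 and 2 on the log2 scale, 50% and 74% were recovered. Unchanged genes made up 4.62% of the calls. A gene that was not called can therefore still differ. Genes were named by 3 rules: the 12 largest rises and 12 largest falls with no overlap and a mean of at least 8 CPM in the higher group; the 10 highest and 10 lowest genes that differed from all 7 other groups, by the smallest of the 7 fold changes, with a mean of at least 8 CPM in the higher group of every comparison; and, from the gene lists, defining markers, core pluripotency factors, compound targets, and the members that moved most. Further members of the lists were chosen after their values were seen. The comparison, the 47 gene lists, and the tests were chosen with earlier results of these data known.

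Alternatives were DESeq2 1.42.0, upper-quartile normalization, other filters, a minimum fold change, the 8 groups in a single fit, primed columns J or K alone, each library left out in turn, the replicate number as a block, and LCDM (EPS) libraries thinned to the median primed total, the last chosen after seeing the data. Depths are given in the report. Bounds cover counting error only, whereas the ± comes from the test and so includes the spread between libraries. Some genes and 1 gene list are not reported here.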

Additional observations from a re-analysis of the deposited data

Results flagged for a closer look

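In the group of 6 primed libraries, 1 library stood apart from the other 5 by Dixon's test for 28 of the 270 genes named in the text. Genes with at most 3 counts in every primed library were passed over. The test flags about 1 in 20 groups of normally distributed values, a rate that does not hold for low counts. Where 5 libraries are at 0 and the other is not, a flag is certain. LCDM (EPS) has 3 libraries and was not examined in this way. The values are those of the library apart, with the range of the other 5 primed libraries, in CPM. Primed library J3 was high for CXCR4 at 11.7 CPM (0 to 2.70 in the others), DUSP6 at 695 CPM (523 to 559.8 in the others), GATA6 at 7.29 CPM (0 to 2.05 in the others), and ISL1 at 3.43 CPM (0 to 0.277 in the others). It was also high for LMX1B at 3.57 CPM (0 to 0.941 in the others) and WNT8A at 25.4 CPM (8.22 to 10.9 in the others). Primed library J3 was low for MAP2 at 28.3 CPM (75.2 to 102 in the others) and SEMA3A at 163 CPM (229 to 256 in the others). J3 has the lowest total of the 9 libraries, and the part of its depth in these values was not tested. Primed library J1 was high for BAX at 59.8 CPM (36.7 to 42.3 in the others), HOXB3 at 3.80 CPM (0 to 1.19 in the others), OLIG2 at 1.12 CPM (0 in the others), and POU4F1 at 1.56 CPM (0 in the others). Primed library J2 was high for CLDN6 at 527 CPM (461 to 478 in the others), PRDM13 at 1.19 CPM (0 in the others), and SYP at 4.32 CPM (0 to 1.23 in the others). Primed library K1 was high for BMPR1B at 18.1 CPM (4.14 to 8.24 in the others), MMP1 at 21.9 CPM (9.95 to 14.3 in the others), NEUROG2 at 0.941 CPM (0 in the others), and PAX6 at 7.79 CPM (1.86 to 3.45 in the others). It was also high for SLC38A4 at 29.9 CPM (7.86 to 15.7 in the others). Primed library K2 was high for CACNG4 at 0.760 CPM (0 in the others), HOXA2 at 0.622 CPM (0 to 0.143 in the others), and PHC1 at 724 CPM (641 to 664 in the others). Primed library K3 was high for HOXB2 at 3.81 CPM (2.16 to 2.57 in the others), LEF1 at 0.887 CPM (0 in the others), LMX1A at 1.33 CPM (0 to 0.112 in the others), and NHLH2 at 0.798 CPM (0 to 0.112 in the others). It was also high for POU3F3 at 0.532 CPM (0 to 0.112 in the others). In each of the named genes that the main comparison called, LCDM (EPS) libraries had the direction given in the report whichever primed library was left out.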

How the results depend on the processing

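The count of genes that differed between LCDM (EPS) and primed cells, 7782 as reported, stayed within 1.5 times under the alternatives tried, with 1 exception. Where a change of at least 1 on the log2 scale was also required, 4354 were left (2337 higher and 2017 lower). Leaving out each library in turn gave 6591 genes (without LCDM (EPS) library 3) to 8176 (without primed library J3), with 3288 to 4107 higher and 3303 to 4069 lower. It was 8069 with DESeq2 (4076 higher and 3993 lower), 7779 with upper-quartile normalization (3758 and 4021), 7820 without the filter (4041 and 3779), 6716 with at least 10 counts in each of the 9 libraries, 9226 with all 8 groups in a single fit, 7474 against primed columns J, and 8326 against primed columns K. Thinning the LCDM (EPS) libraries, which was chosen after seeing the data, gave 7697.

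Of the 943 genes in which LCDM (EPS) differed from every other group (422 higher and 521 lower), 327 met the same requirement in every comparison (110 higher and 217 lower). Upper-quartile normalization gave 356 and 572 and DESeq2 385 and 590, and leaving out an LCDM (EPS) library gave 735 to 816 in all, 322 to 353 higher and 413 to 463 lower. No paired analysis was possible because the primed columns, numbered from 1 within each of the letters J and K, could not be tied to single samples of the labels, and so to their replicate numbers. Among the 21 libraries of the 7 protocols, the replicate number does not pair samples: the 63 same-number correlations of deviations ran from -0.12 to 0.0604, and 1 of 21 libraries lay closest to its own number. With the replicate number as a block, 1160 genes were called (557 higher and 603 lower), against 1182 in the same fit without the block.

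For the 270 named genes, 3977 of 4042 values under the alternatives kept direction and call, 30 lost the call, 27 gained one, and 8 changed sign. No gene called in the main comparison changed sign. The sign changes were in genes that had not been called. GATA4 changed to -0.59 and GATA6 to -0.35 against primed columns J, and GATA4 lay between -0.10 and 1.60 on leaving out single libraries. STAT3 was at -0.31 and FOXA2 at 0.069 against primed columns K, and STAT3 lay between -0.048 and 0.174 on leaving out single libraries. Of the 1410 counts of list members under these settings, 48 moved by more than 1.5 times, 21 of them on leaving out a library, each by at most 4 genes.

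The primed libraries are shallower than those of LCDM (EPS), so that low genes are bounded less closely in primed cells. No promoter sequences were used here, and the planned search for a TCF/LEF motif was not run. The 3 LCDM (EPS) libraries are from 1 clone, and whether they are separate cultures is not stated.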

Other observations

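Genes of glia were partly higher in LCDM (EPS) cells. Of 13 glial genes tested, 7 rose and 3 fell. SLC1A3, a glutamate transporter of radial glia and astrocytes, stood at 57.4, 64.7, and 51.2 CPM in LCDM (EPS) and 9.81 to 24.1 CPM with a median of 18.4 in primed libraries (log2 fold change 1.70 ± 0.22, adjusted p = 1.3e-05), and GFAP, the astrocyte filament, at 6.602, 8.63, and 12.3 CPM against 0 to 3.10 CPM with a median of 0.939 (log2 fold change 2.79 ± 0.91, adjusted p = 0.018), a call that was lost without LCDM (EPS) library 3 (adjusted p = 0.086). GLUL, which makes glutamine, rose to 269.7, 274, and 266 CPM from 144 to 174 CPM with a median of 150 (log2 fold change 0.81 ± 0.081, adjusted p = 1.1e-06), whereas MBP, a myelin protein, fell to 1.59, 0.801, and 0 CPM from 2.66 to 12.7 CPM with a median of 6.56 (log2 fold change -3.24 ± 0.91, adjusted p = 0.0077). No sample of mature glia is in the series to set these levels against.

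Collagen, lysosome, and interferon genes moved in both directions. Of 20 collagen genes, 6 rose (3 without LCDM (EPS) library 2) and 8 fell. That is 30% and 40%, against 28.2% and 28.9% over all genes tested. COL2A1, of cartilage and early neuroepithelium, rose to 300.3, 344, and 348 CPM from 6.21 to 21.4 CPM with a median of 10.3 (log2 fold change 4.84 ± 0.27, adjusted p = 2.9e-09), and the basement membrane chain COL4A6 fell to 15.9, 17.6, and 17.2 CPM from 47.1 to 63.6 CPM with a median of 50.4 (log2 fold change -1.63 ± 0.15, adjusted p = 5.5e-07). Of 28 lysosomal genes, 5 rose (3 without LCDM (EPS) library 3) and 11 fell, with the cholesterol carrier NPC2 at 33.98, 36.8, and 28.5 CPM against 389 to 497 CPM with a median of 463 (log2 fold change -3.76 ± 0.12, adjusted p = 7.8e-12) and the protease gene CTSB at 127, 140.1, and 137 CPM against 55.1 to 92.5 CPM with a median of 65.3 (log2 fold change 0.98 ± 0.14, adjusted p = 3.9e-05). Of 16 interferon-response genes, 4 rose (25%) and 5 fell (31.2%), near the shares over all genes tested (28.2% and 28.9%). B2M, the light chain of MHC class I, fell to 131, 139, and 113 CPM from 328 to 389 CPM with a median of 375 (log2 fold change -1.51 ± 0.096, adjusted p = 1.1e-08), and IFI6 rose to 7.06, 9.48, and 6.06 CPM from 0 to 0.622 CPM with a median of 0.110 (log2 fold change 5.08 ± 0.88, adjusted p = 0.00021). For SLC1A3, COL2A1, and NPC2, no LCDM (EPS) library reached the primed range.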
